A study of Rattus norvegicus with 24 samples.

Results

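Heat shock proteins and their co-chaperones were followed by gene symbol: the Hsp70 and Hsp110 genes (Hspa, Hsph), Hsp90, the mitochondrial chaperonin pair (Hspd, Hspe), the small heat shock proteins (Hspb), the J-domain proteins (Dnaj), subunits of the cytosolic chaperonin CCT, and the BAG proteins. The endoplasmic reticulum genes Hspa5, Hsp90b1 and Dnajc3 were left out of the group by rule. On the array, 112 probe sets with a single gene symbol belonged to 74 such genes. Of these, 81 probe sets of 61 genes lay above a log2 level of 4 on at least 6 of 21 arrays, and each gene was represented by its probe set with the highest mean, giving 61 members among 8737 genes measured in the same way. The other 13 genes lay above that level on no array: Dnajb3, Dnajb7, Dnajc17, Dnajc18, Dnajc22, Dnajc30, Hspa12b, Hspa1l, Hspb2, Hspb3, Hspb7, Hspb9 and Hspbap1. At the edge of the filter, the sixth-highest array value was 4.38 for Bag4 and 4.42 for Dnajc21, just inside, and 3.64 for Dnajc30 and 3.35 for Dnajc17, just outside. Hspa8 and Hsp90aa1, the main constitutive Hsp70 and the inducible Hsp90 gene, are not among the members because their probe sets carry several gene symbols.

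The arrays measured RNA from the microdissected dentate gyrus, the granule cell field of the hippocampus, of single male Long-Evans rats that had received no treatment. Young rats were 6 months old (8 arrays used). Aged rats were 24 to 26 months old and were divided by their learning index in the Morris water maze, a test of spatial memory, into Aged Unimpaired rats (6 arrays used), which performed like the young, and Aged Impaired rats (7 arrays used), which performed worse; tissue was taken 2 weeks after the behavioural tests. One further array in each group was marked as omitted by the submitters and has no values, so it entered no comparison. Whether the rats shared litters or dissection days is not given in the labels.

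The 7 granule neuron markers, Prox1 and Calb1 among them, averaged 9.39 to 9.95 on every array, so the labelled tissue carried its defining markers. Of 7 markers of hippocampal pyramidal neurons, 5 passed the level filter and averaged 6.69 to 7.72 over the arrays. The part of RNA from pyramidal neurons was not tested. Markers of the meninges, the membranes around the brain, stood apart on a few arrays. Their mean level over 17 genes was 5.04, 4.72 and 4.10 in Aged Impaired replicates 2, 3 and 7 and 4.07 in young replicate 5, with 3.65 to 3.81 on the other young arrays, 3.58 to 3.64 in Aged Unimpaired rats and 3.58 to 3.70 on the other Aged Impaired arrays. Only 5 of the 17 passed the level filter, and Col1a1, Col1a2, Col3a1, Dcn and Lum were among the 12 that did not. Among 7 choroid plexus markers only Ttr passed the filter. It lay at 10.78 in young replicate 2, 9.43 in Aged Unimpaired replicate 3, and 10.09 and 7.28 in Aged Impaired replicates 7 and 3, and from 4.11 to 5.49 elsewhere. In RNA from whole tissue, fewer cells of a type and less RNA per cell cannot be told apart.

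Chaperones bind unfolded or half-folded proteins and keep them from clumping. Hsp70 cycles between an open state and a closed state: J-domain proteins bring it substrates and trigger ATP hydrolysis, and Hsp110 and BAG proteins release the nucleotide. Hsp90 matures kinases and steroid receptors, CCT folds actin and tubulin inside its barrel, and small heat shock proteins hold unfolded chains without ATP. When unfolded protein builds up, the factor HSF1 binds heat shock elements, which are inverted repeats of the 5 bases nGAAn, and raises the inducible members. The rule goes by symbol and not by compartment: Hspd1, Hspe1, Hspa9, Dnaja3 and Dnajc19 act in mitochondria, and Hspa13, Dnajb9, Dnajb11, Dnajc1 and Dnajc10 in the endoplasmic reticulum.

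Promoter sequence was available from RefSeq (GRCr8) for 51 of the 61 members, as windows from 250 bases before to 50 bases after the start. Only the 250 bases before the start were searched. A heat shock element of 3 alternating units, spelled TTC, any 2 bases, GAA, any 2 bases and TTC, or GAA, any 2 bases, TTC, any 2 bases and GAA, on either strand, was present in 3 of the 51, Hsph1, Hspd1 and Hspe1, and in 0.663% of the 27457 genes with a window. The shorter element of 2 units, GAA, any 2 bases and TTC, or TTC, any 2 bases and GAA, which the longer one contains and which was searched after the longer one, was present in 15 of the 51 members and in 14.3% of all genes with a window. These stretches are shown because they belong to the members that carry the full element and to the inducible or most closely correlated members described later; each reads 5′ to 3′ along the gene's own strand, and capitals mark the match.
Hsph1 (chr12:10427317-10427359, + strand): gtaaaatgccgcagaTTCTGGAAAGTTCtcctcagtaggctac
Hspd1 (chr9:64084247-64084287, − strand): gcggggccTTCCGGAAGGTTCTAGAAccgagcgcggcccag
Hspe1 (chr9:64084247-64084294, + strand): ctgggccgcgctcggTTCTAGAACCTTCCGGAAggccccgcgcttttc
Dnaja1 (chr5:60638208-60638245, + strand): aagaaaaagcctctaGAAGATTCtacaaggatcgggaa
Dnajb1 (chr19:41431142-41431167, − strand): gcatcgggaggggcgGAAGGTTCtgg
Hspb8 (chr12:45837270-45837307, + strand): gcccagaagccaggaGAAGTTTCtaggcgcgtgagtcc
Cct6a (chr12:32519090-32519127, − strand): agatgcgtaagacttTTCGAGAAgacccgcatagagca
The Hsph1 match lies 24 to 36 bases before the start. Hspd1 and Hspe1 are divergent neighbours whose starts lie 290 bases apart, and their 2 stretches are the same element read on opposite strands. A match describes letters in a window and is no evidence of HSF1 binding.

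Differences between groups were small across the family. At a limma p below 0.05 after Benjamini-Hochberg adjustment over 15177 probe sets, 0 of the 61 members differed in Aged Impaired against young, where 0.618% of the 8737 genes did. The same count was 0 in Aged Unimpaired against young (1.29% of genes), 0 in Aged Impaired against Aged Unimpaired (0% of genes) and 0 in all aged against young (1.28% of genes). At an unadjusted limma p below 0.05, 4 members were lower and 4 higher in Aged Impaired than in young rats (4.53% and 8.57% of genes), and the exact permutation test gave 5 and 3 (4.36% and 8.69% of genes). In Aged Unimpaired against young, limma gave 9 lower and 0 higher (14.9% and 3.14% of genes) and the exact test 12 and 0 (13.9% and 3.15%). Between the aged groups, 2 members were lower and 9 higher in Aged Impaired (1.41% and 14.4% of genes), or 2 and 10 by the exact test (1.4% and 16.1%). Pooling the aged rats gave 7 lower and 0 higher (9.74% and 5.4% of genes), or 8 and 0 by the exact test (8.81% and 5.44%). The unadjusted calls moved with the scaling of the arrays. After median centring limma gave 2 lower and 1 higher in Aged Unimpaired against young rats (6.35% and 9.53% of genes) and 4 lower and 3 higher between the aged groups (5.93% and 4.73% of genes). Quantile normalization gave 2 lower and 1 higher (6.96% and 8.78% of genes), and 4 lower and 2 higher (6.05% and 4.64% of genes). The p-values measure the spread between single animals.

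The precision of these arrays bounded most members closely. The 95% interval of the difference between Aged Impaired and young rats lay wholly within 0.5 on the log2 scale for 54 of 61 members. That is 88.5% of members, against 94.3% of all genes. The point estimate lay within 0.2 for 53, or 86.9% of members, against 91.4% of all genes. A negative sign was more frequent among members than among genes at large in comparisons with young rats: 37 of 61 in Aged Impaired (43.8% of genes), with a median difference of -0.02 against 0.01 over all genes, and 50 of 61 in Aged Unimpaired (67.2% of genes), with a median of -0.07 against -0.04. Between the aged groups 15 of 61 were negative (25.3% of genes), and the median was 0.05 for members and for all genes alike. Over all aged rats 43 of 61 were negative (56.9% of genes), with a median of -0.05 against -0.01. All comparisons with the young share the same young arrays. After each array was centred on its median, 38 of 61 members were negative in Aged Impaired (47.0% of genes) and 38 in Aged Unimpaired rats (43.5% of genes). Between the aged groups 34 were negative (53.3% of genes). In Aged Unimpaired rats the count of members and the share of all genes thus both moved with the scaling.

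**Figure D1:**
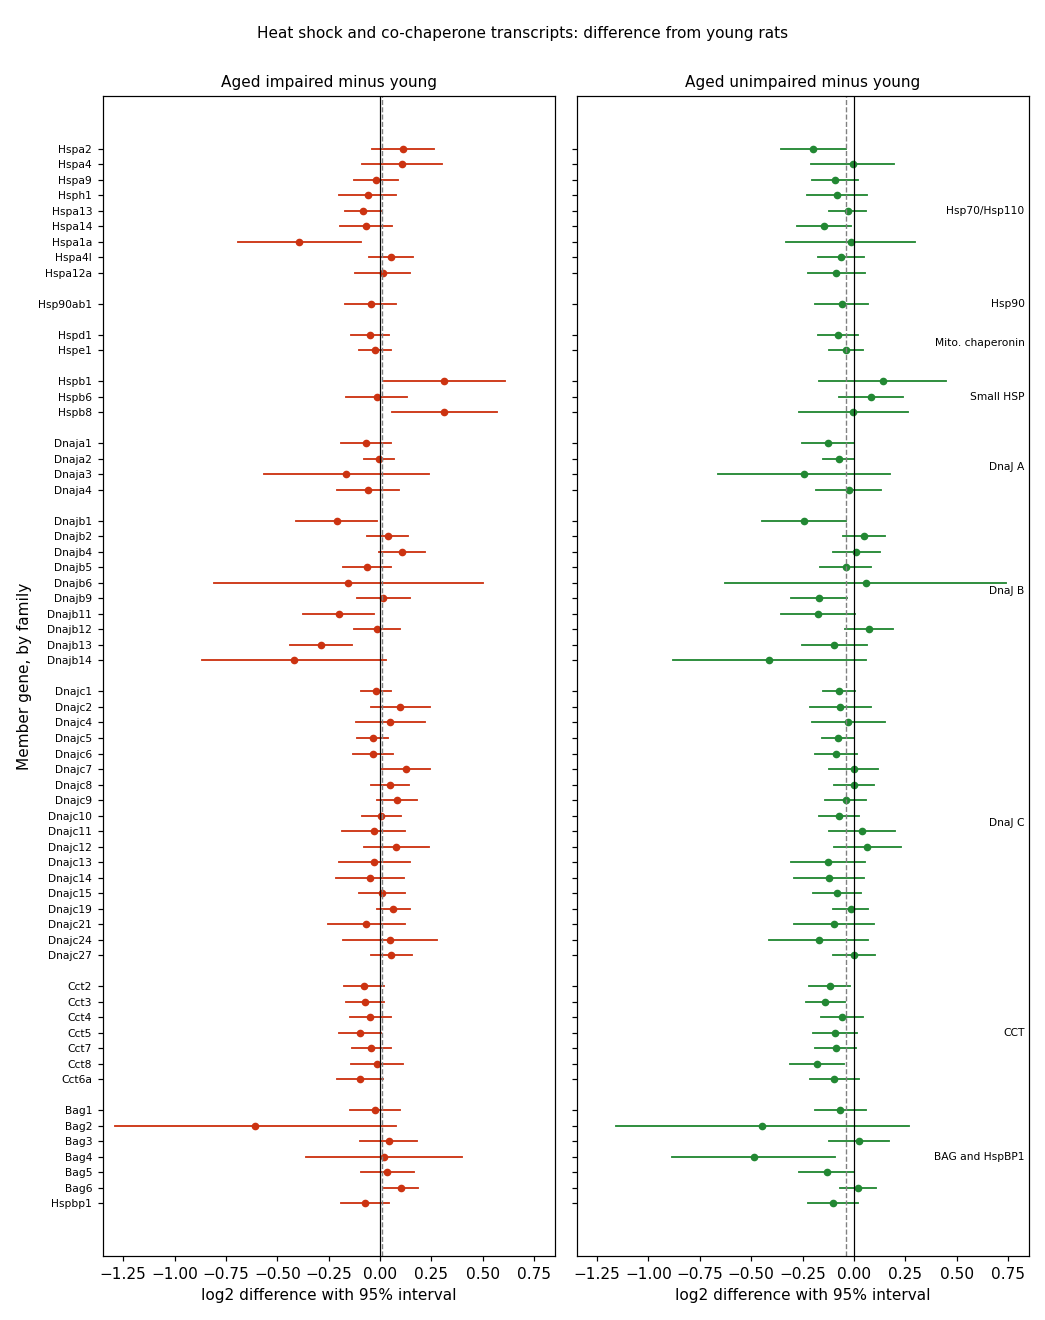
Difference from young rats in log2 units for each of the 61 members, grouped by family, with Aged Impaired rats on the left and Aged Unimpaired rats on the right. Points are limma differences, bars are 95% intervals, and the dashed line is the median of all 8737 genes (0.01 on the left, -0.04 on the right); all 7 CCT subunits lie left of zero in both panels, and Bag2, Dnajb6 and Dnajb14 have the widest bars.

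**Figure D2:**
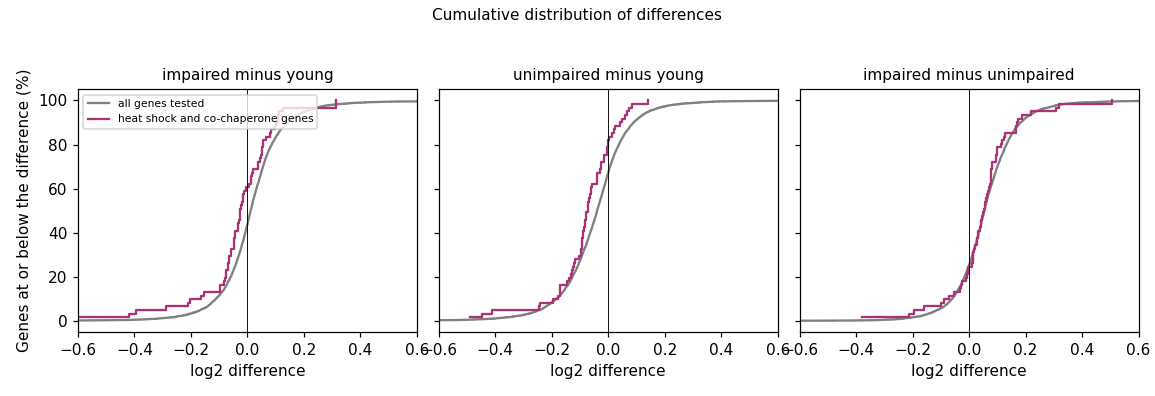
Share of genes (%) at or below each log2 difference, for the 61 members and for all 8737 genes tested, in 3 comparisons. At the middle of the curves the members lie left of all genes in both comparisons with young rats, with medians of -0.02 against 0.01 and -0.07 against -0.04, and at the same place between the aged groups, where both medians are 0.05.

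Among the Hsp70 genes, the inducible Hspa1a had the largest difference. With a mean of 4.94 over the arrays, it was one of the members closest to the filter level, so its values may lie near background. Its levels ran from 4.86 to 5.81 (median 4.92) in young rats, 4.85 to 5.48 (4.88) in Aged Unimpaired rats and 4.40 to 5.10 (4.67) in Aged Impaired rats. Only 2 of the 7 Aged Impaired arrays, replicates 6 and 7, reached the lowest young value, and young replicate 3 was the highest array. The difference was -0.39 ± 0.14 (SE) in Aged Impaired against young rats (limma, Benjamini-Hochberg adjusted p = 0.241) and -0.38 ± 0.16 against Aged Unimpaired rats (adjusted p = 0.267 by limma). Without young replicate 3 the first of these was -0.29 ± 0.12. Aged Unimpaired rats lay near the young, with a difference of -0.02 ± 0.15. Because Hspa1a has the near-identical copy Hspa1b, whose shared probe set carries both symbols, these values may include both genes.

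Hspa2, an Hsp70 best known from germ cells and also present in brain, gave the smallest adjusted p among members between the aged groups. It ran from 8.17 to 8.52 in Aged Impaired rats (median 8.39), from 7.71 to 8.26 in Aged Unimpaired rats (8.08) and from 8.09 to 8.45 in young rats (8.25). All 7 Aged Impaired values lay above the Aged Unimpaired mean, while the ranges overlapped. The difference was 0.31 ± 0.08 (limma, Benjamini-Hochberg adjusted p = 0.138). A second Hspa2 probe set gave 0.00 ± 0.06 for the same comparison, and the mean of both gave 0.16 ± 0.05, so the probe sets disagree.

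Other Hsp70 relatives differed less. Hspa13, an Hsp70-like protein of the endoplasmic reticulum, lay below the young mean on 7 of 7 Aged Impaired arrays, with a difference of -0.08 ± 0.04. Hspa14, which works with a J-domain partner at the ribosome, differed by -0.14 ± 0.06 in Aged Unimpaired rats. Hspa4 and Hspa4l, nucleotide exchange factors of the Hsp110 class, differed from young by 0.11 ± 0.09 and 0.05 ± 0.05 in Aged Impaired rats. Hsph1, the heat-inducible Hsp110 that releases nucleotide from Hsp70 and dissolves aggregates with it, ran from 10.68 to 11.03 in young, 10.46 to 10.88 in Aged Unimpaired rats and 10.59 to 11.00 in Aged Impaired rats. Its differences from young were -0.06 ± 0.07 in Aged Impaired and -0.08 ± 0.07 in Aged Unimpaired rats. Hsp90ab1, the constitutive Hsp90, differed by -0.05 ± 0.06 and -0.06 ± 0.06, and its groups overlapped. A second Hsp90ab1 probe set gave larger differences of -0.18 ± 0.06 in Aged Impaired and -0.14 ± 0.07 in Aged Unimpaired rats (limma, Benjamini-Hochberg adjusted p = 0.211 and 0.285), so the size differs between probe sets.

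The mitochondrial chaperonin Hspd1 and its lid Hspe1 stayed within narrow ranges. Hspd1 ran from 11.22 to 11.46 in young, 11.10 to 11.28 in Aged Unimpaired rats and 11.06 to 11.37 in Aged Impaired rats, and differed from young by -0.08 ± 0.05 in Aged Unimpaired rats and -0.05 ± 0.04 in Aged Impaired rats. Hspe1 differed by -0.04 ± 0.04 and -0.03 ± 0.04. The 2 genes, which share the promoter element shown earlier, varied together within groups: after each group's mean was removed, Pearson's r over 21 arrays was 0.72 (permutation p = 0.00179) and Spearman's rho 0.62 (permutation p = 0.00425). Without the 2 arrays farthest from the median r was 0.55, and within the groups it was 0.46 in young, 0.76 in Aged Unimpaired rats and 0.86 in Aged Impaired rats. The median pair of all genes had r of 0.06, and the 90th percentile was 0.40. The Hspd1 and Hspe1 pair was examined after its promoter was seen, and the part of the shared element was not tested.

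J-domain proteins of class B, which include the stress-inducible partners of Hsp70, had 7 of 10 members negative in Aged Impaired rats (43.8% of genes). Their median difference was -0.11 against 0.01 over all genes. Dnajb13, a protein of sperm flagella and motile cilia, had the smallest adjusted p of all members against young. Its levels were 6.35 to 6.91 (median 6.61) in young, 6.41 to 6.75 (6.48) in Aged Unimpaired rats and 6.20 to 6.45 (6.29) in Aged Impaired rats. Every Aged Impaired array lay below the young mean, and the single young array within their range was replicate 5. The difference from young was -0.29 ± 0.07 (limma, Benjamini-Hochberg adjusted p = 0.0748), and without young replicate 5 it was -0.33 ± 0.07 with an adjusted p of 0.0220 by limma. Without the 4 arrays high in meningeal markers, young replicate 5 among them, it was -0.31 ± 0.08 with an adjusted p of 0.194 by limma. In Aged Unimpaired rats the difference was -0.09 ± 0.08. On the 3 arrays with the most Ttr, Dnajb13 lay at 6.69 in young replicate 2, 6.75 in Aged Unimpaired replicate 3 and 6.45 in Aged Impaired replicate 7, the last 2 being the highest of their groups; the part of choroid plexus RNA was not tested.

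Dnajb1, the main heat-inducible J-domain partner of Hsp70, lay below the young mean on 13 of 13 aged arrays. Levels were 9.44 to 10.17 (median 9.57) in young, 9.09 to 9.64 (9.42) in Aged Unimpaired rats and 9.25 to 9.59 (9.47) in Aged Impaired rats. The young mean was raised by replicate 9, which stood alone at 10.17, and all 3 groups overlapped. The difference from young was -0.21 ± 0.09 in Aged Impaired and -0.24 ± 0.10 in Aged Unimpaired rats (limma, Benjamini-Hochberg adjusted p = 0.361 and 0.214). Without young replicate 9 these became -0.14 ± 0.07 and -0.17 ± 0.08. A second Dnajb1 probe set gave -0.21 ± 0.14 and -0.18 ± 0.14.

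Dnajb11 and Dnajb9 are class B members of the endoplasmic reticulum that serve the Hsp70 there, BiP. Dnajb11 ran from 7.63 to 8.08 in young, 7.48 to 7.98 in Aged Unimpaired rats and 7.48 to 7.98 in Aged Impaired rats, with differences of -0.17 ± 0.09 and -0.20 ± 0.08. Dnajb9 ran from 8.62 to 9.03 in young, 8.32 to 8.75 in Aged Unimpaired rats and 8.76 to 8.90 in Aged Impaired rats. It is the only member whose Aged Impaired and Aged Unimpaired ranges do not overlap, a pattern found in this direction for 1.19% of genes. The difference between the aged groups was 0.19 ± 0.07 (limma, Benjamini-Hochberg adjusted p = 0.230), and the two-sided exact permutation p of 0.000583 is the smallest these group sizes allow. The ranges are only narrowly apart, 8.76 against 8.75. Median centring moved the median difference of all genes between the aged groups from 0.05 to -0.01. Whether the Dnajb9 ranges stay apart after it was not tested.

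Dnajb6, a J-domain protein known for suppressing polyglutamine aggregation, split into separate levels that cut across the groups. It lay between 11.50 and 11.77 on 8 arrays, 3 young, 3 Aged Unimpaired and 2 Aged Impaired, and between 10.14 and 10.71 on the other 13. No array fell in the gap of 0.79, and the difference from young was -0.15 ± 0.32 in Aged Impaired rats. Bag2, a BAG protein that regulates the ubiquitin ligase CHIP, showed a similar gap. It lay between 7.19 and 8.20 on 4 arrays, young replicates 1, 4 and 9 and Aged Unimpaired replicate 1, and between 5.86 and 6.31 on 17. No Aged Impaired rat was in the upper set, and the difference from young was -0.61 ± 0.33 (limma, Benjamini-Hochberg adjusted p = 0.476). Both genes were singled out after their values were seen.

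**Figure D3:**
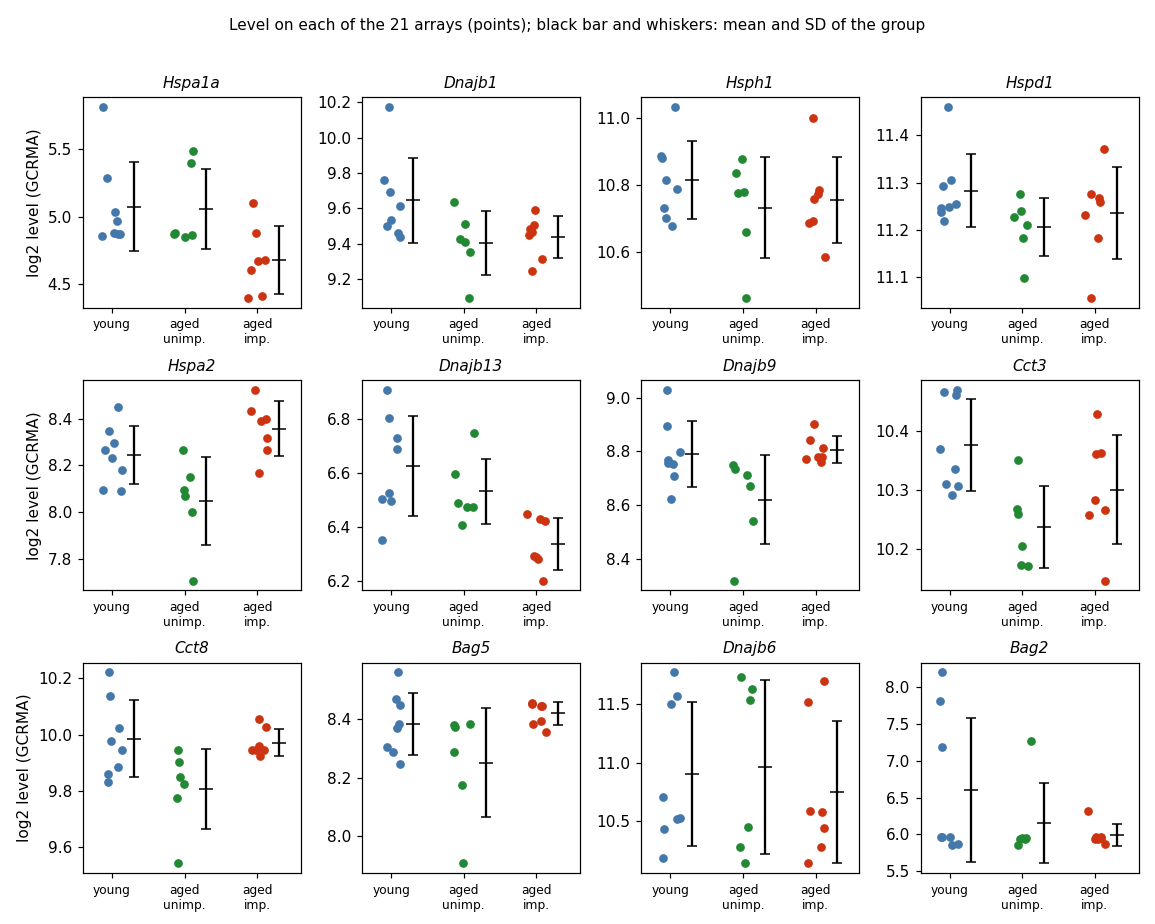
Log2 level (GCRMA) of 12 members on each of the 21 arrays, by group, with the group mean and SD in black. The Hspa1a and Dnajb13 points of the Aged Impaired rats lie mostly low. Dnajb9 narrowly separates the aged groups (8.76 and above against 8.75 and below), and Dnajb6 and Bag2 fall into separate levels. The upper Dnajb6 level holds arrays of each group, the upper Bag2 level 3 young and 1 Aged Unimpaired array.

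In class A, all 4 members were negative in each comparison with young, where 43.8% of genes were negative in Aged Impaired and 67.2% in Aged Unimpaired rats. The class A medians were -0.06 and -0.10, against 0.01 and -0.04 over all genes. Dnaja1, an inducible class A partner of Hsp70, differed by -0.07 ± 0.06 and -0.13 ± 0.06. Its second probe set gave -0.16 ± 0.06 in Aged Impaired and -0.18 ± 0.06 in Aged Unimpaired rats (limma, Benjamini-Hochberg adjusted p = 0.241 and 0.125). In class C, 15 of 18 were negative in Aged Unimpaired rats but 7 of 18 in Aged Impaired rats, against 67.2% and 43.8% of genes. Dnajc7, a regulator of Hsp70 and Hsp90 with TPR repeats, was above the young mean on 7 of 7 Aged Impaired arrays and differed by 0.13 ± 0.06 (limma, Benjamini-Hochberg adjusted p = 0.354). Dnajc6, or auxilin, which uncoats clathrin vesicles at synapses, differed by -0.04 ± 0.05 in Aged Impaired rats. Dnajc5, the synaptic vesicle protein CSPα, differed by -0.03 ± 0.04. The second Dnajc6 probe set gave 0.04 ± 0.07, and 2 further Dnajc5 probe sets gave 0.12 ± 0.14 and 0.04 ± 0.06, so the sign depends on the probe set.

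All 7 measured CCT subunits were negative in Aged Impaired rats (median -0.08), in Aged Unimpaired rats (median -0.09) and in all aged rats (median -0.10), against medians of 0.01, -0.04 and -0.01 over all genes. They were also 7 of 7 negative in each of these after median centring and after quantile normalization, and 6 of 7 in Aged Impaired rats once the 4 arrays high in meningeal markers were left out. The mean of the 7 subunits ran from 10.51 to 10.71 (median 10.55) in young, 10.32 to 10.56 (10.49) in Aged Unimpaired rats and 10.44 to 10.61 (10.52) in Aged Impaired rats, so the groups overlapped. Young replicates 6 and 9 were the highest, at 10.71 and 10.68, and the other young arrays lay between 10.51 and 10.60. The 7 subunits share these arrays, so their signs are not independent. Cct3 had the smallest adjusted p, with levels of 10.29 to 10.47 in young and 10.17 to 10.35 in Aged Unimpaired rats and a difference of -0.14 ± 0.05 (limma, Benjamini-Hochberg adjusted p = 0.139). Cct8 differed by -0.18 ± 0.06 in Aged Unimpaired rats and -0.01 ± 0.06 in Aged Impaired rats. Second probe sets did not all follow: Cct5 gave -0.06 ± 0.05 in Aged Impaired rats, Cct6a -0.53 ± 0.16, and Cct8 0.14 ± 0.06. Tcp1, the subunit outside the symbol rule, had means of 10.93 in young, 10.93 in Aged Unimpaired rats and 10.95 in Aged Impaired rats. The subunits varied together within groups: all 21 pairs correlated positively over the 21 arrays, with r from 0.21 to 0.76 and a median of 0.47, where the median pair of all genes had 0.06 and the 90th percentile was 0.40. These correlations are a description and were chosen after the values were seen.

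Aged Unimpaired rats had lower means than the young in 3 marker lists. The mean of 7 oligodendrocyte markers was 9.97 to 10.31 in these rats and 10.35 to 10.66 in the young, and that of 5 endothelial markers was 7.45 to 7.54 against 7.60 to 7.86. The meningeal mean over 17 genes was likewise 3.58 to 3.64 against 3.65 to 4.07, with no overlap in any of the 3 lists. Genes within a list differed in size. Cldn11 and Mal gave -0.64 ± 0.10 and -0.63 ± 0.11, but Mbp and Mobp -0.03 ± 0.07 and -0.04 ± 0.09. Slco1c1 and Slco1a4 gave -0.50 ± 0.07 and -0.40 ± 0.10, but Flt1 and Pecam1 -0.06 ± 0.06 and -0.09 ± 0.10. In Aged Impaired rats Slco1c1 differed by -0.55 ± 0.06. In Aged Unimpaired rats 67.2% of all genes were negative, and 43.5% after median centring. The part of these cell types in the lower CCT and class C levels was not tested.

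Small heat shock proteins had positive differences in Aged Impaired rats for 2 of 3 members. Hspb1, or Hsp27, ran from 5.93 to 6.41 (median 6.15) in young, 5.97 to 6.50 (6.32) in Aged Unimpaired rats and 5.93 to 7.25 (6.52) in Aged Impaired rats. Its 3 highest arrays, 7.25, 6.66 and 6.57, were Aged Impaired replicates 2, 3 and 7, the same arrays that carried the most meningeal marker RNA. The difference from young was 0.31 ± 0.14 (limma, Benjamini-Hochberg adjusted p = 0.365), and 0.18 ± 0.11 when replicate 2 was left out. Leaving out Aged Impaired replicates 2, 3 and 7 and young replicate 5, the 4 arrays highest in meningeal markers, gave 0.01 ± 0.11. Young replicate 5 had a meningeal mean of 4.07 but the lowest Hspb1 level of the 21 arrays, 5.93. That fit thus dropped the highest and the lowest Hspb1 arrays together. The part of meningeal RNA in the Hspb1 difference was not tested. Hspb8, which works with Bag3 in selective autophagy, ran from 5.91 to 6.41 in young and 6.05 to 7.11 in Aged Impaired rats, with replicate 2 again highest. Its difference was 0.31 ± 0.12 (adjusted p = 0.277 by limma), and 0.19 ± 0.13 without those 4 arrays. Hspb6 differed by -0.02 ± 0.07. Cryab, a small heat shock protein outside the symbol rule, differed from young by 0.07 ± 0.10 in Aged Impaired rats. In Aged Unimpaired rats its difference was 0.29 ± 0.11 (adjusted p = 0.180 by limma).

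**Figure D4:**
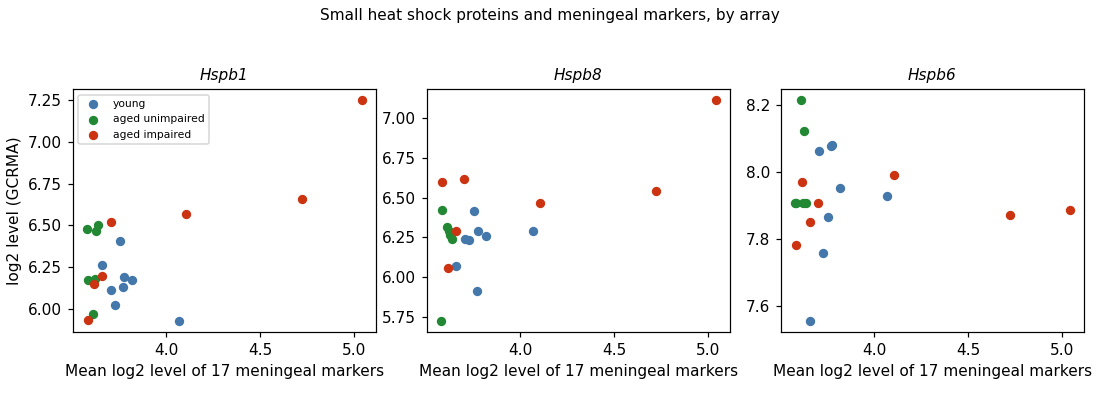
Log2 levels of the 3 small heat shock proteins among the members against the mean log2 level of 17 meningeal markers, by array and group. The highest Hspb1 and Hspb8 points (7.25 and 7.11) belong to the Aged Impaired array with the highest marker mean (5.04), whereas Hspb6 shows no such point.

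BAG proteins and Hspbp1, which exchange nucleotide on Hsp70, had no common direction in Aged Impaired rats, with 3 of 7 negative and a median of 0.02. Bag3, the inducible partner of Hspb8, ran from 5.12 to 5.75 in young and 5.41 to 5.62 in Aged Impaired rats and differed by 0.04 ± 0.07. Bag6, which guards membrane proteins in the cytosol, ran from 8.76 to 8.93 in young, 8.75 to 9.00 in Aged Unimpaired rats and 8.91 to 9.09 in Aged Impaired rats. Its difference from young was 0.10 ± 0.04 (limma, Benjamini-Hochberg adjusted p = 0.280), with 7 of 7 Aged Impaired arrays above the young mean. Bag5 ran from 7.90 to 8.39 in Aged Unimpaired rats and 8.36 to 8.46 in Aged Impaired rats, a difference of 0.17 ± 0.07 (adjusted p = 0.256 by limma). Aged Unimpaired replicate 4 was its lowest array, and without it the difference was 0.10 ± 0.05. Bag4, near the filter, lay at 2.82 in Aged Unimpaired replicate 1, where low values have no reliable order. The difference of that group from young was -0.49 ± 0.19 with this array and -0.29 ± 0.15 without it.

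Hsph1 served as the reference for how members of the core inducible list varied between animals, with each group's mean removed. Over 21 arrays it correlated with Hsp90ab1 (r = 0.77, permutation p = 6e-05, adjusted over 11 relations 0.00066; rho 0.71), Hspd1 (r = 0.66, permutation p = 0.00216, adjusted 0.0117; rho 0.63) and Dnaja1 (r = 0.64, permutation p = 0.0032, adjusted 0.0117; rho 0.74). Without the 2 arrays farthest in Hsph1, r was 0.75, 0.65 and 0.69. Within groups the r values were 0.74, 0.90 and 0.64 for Hsp90ab1 in young, Aged Unimpaired and Aged Impaired rats, 0.87, 0.73 and 0.49 for Hspd1, and 0.84, 0.45 and 0.61 for Dnaja1. Hspe1 had r = 0.53 (permutation p = 0.0218, adjusted 0.0599). Other members of the core inducible list, which also holds the constitutive Hsp90ab1, did not pass. Their r was 0.33 for Hspa4l, 0.32 for Hspa4, 0.20 for Dnajb1, 0.06 for Hspa1a, 0.05 for Bag3, -0.04 for Hspb1 and -0.20 for Hspb8. Quantile normalization left 1 of the 3 relations past an adjusted p of 0.05, and so did leaving out young replicate 6, the array with the highest Hspd1.

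By the same measure, the genes nearest to Hsph1 among 8736 were Adsl (r = 0.90), Canx (0.87) and Prrt1 (0.86), and Cct6a ranked 4 with 0.85. Hsp90ab1, Hspd1 and Dnaja1 ranked 18, 166 and 201. Over all genes the median r with Hsph1 was 0.15 and 69.9% were positive. For the 60 other members the median was 0.25, and 47 were positive. The permutation p-values test against an r of 0 and not against the median of all genes. An r above 0.6 was reached by 11 of the 60 other members and by 3.89% of genes. Among those 11 were the CCT subunits Cct6a, Cct3, Cct5, Cct8 and Cct4. The median r was 0.24 for 14 other members with the element of 2 units and 0.30 for 36 without it. All points come from the same 21 arrays, so anything shared by an array enters each correlation.

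**Figure D5:**
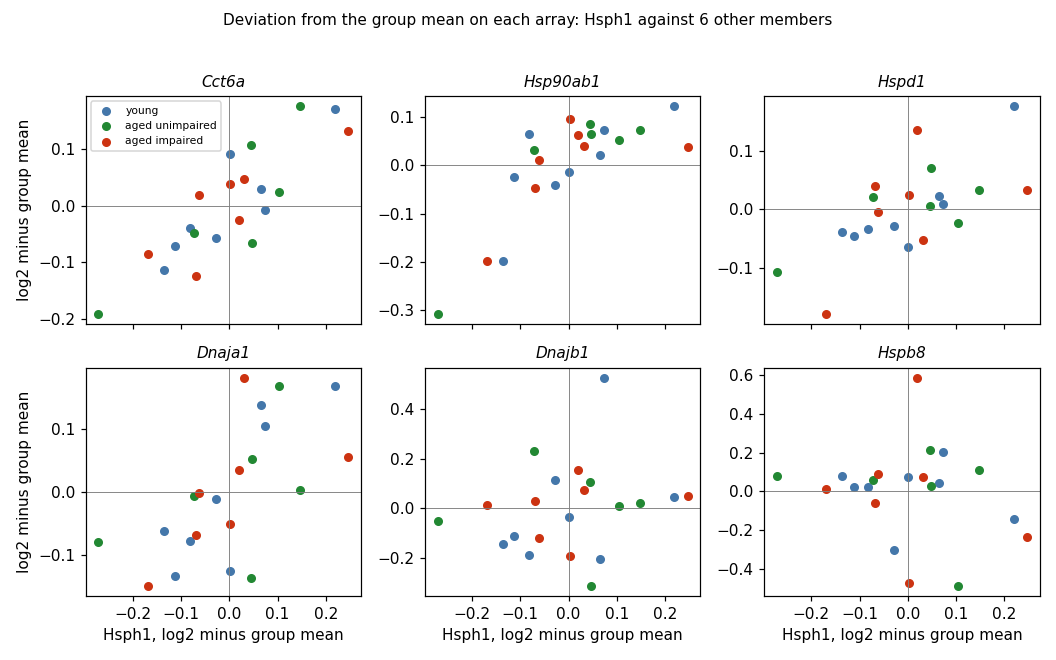
Deviation from the group mean in log2 units on each of the 21 arrays, Hsph1 on the horizontal axis against 6 other members. Cct6a, Hsp90ab1, Hspd1 and Dnaja1 follow Hsph1 (r of 0.85, 0.77, 0.66 and 0.64), and Dnajb1 and Hspb8 do not (0.20 and -0.20).

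Of 46 other proteostasis genes listed (heat shock factors, Hsp90 co-chaperones, prefoldins and chaperones of the endoplasmic reticulum), 41 were measured and 0 passed the adjusted limma threshold in any comparison. At an unadjusted limma p below 0.05, 7 of the 41 were lower and 4 higher in Aged Impaired than in young rats (4.53% and 8.57% of all genes), and 10 lower and 3 higher in Aged Unimpaired rats (14.9% and 3.14% of all genes). Of the genes left out of the members by rule, Dnajc3, a BiP co-chaperone, differed by -0.49 ± 0.12 in Aged Impaired rats (limma, Benjamini-Hochberg adjusted p = 0.0686) and Hspa5, which is BiP itself, by -0.31 ± 0.09 (adjusted p = 0.129 by limma). All 13 aged arrays lay below the young mean for both genes. Hsp90b1, the Hsp90 of the endoplasmic reticulum, differed by -0.10 ± 0.06 in Aged Impaired rats. Fkbp5, a glucocorticoid-induced Hsp90 co-chaperone, lay above the young mean on 13 of 13 aged arrays, with a difference of 0.27 ± 0.07 (adjusted p = 0.0562 by limma). Serpinh1, the collagen chaperone Hsp47, lay below it on 13 of 13, by -0.51 ± 0.13 (adjusted p = 0.0601 by limma). Hsf1, the factor that drives the heat shock response, had means of 7.38 in young, 7.30 in Aged Unimpaired rats and 7.28 in Aged Impaired rats.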

How the data were processed

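RNA from 24 rats was measured on Affymetrix whole-genome rat arrays, and 21 arrays have values. GCRMA (version not given) is the method the submitters' processing notes name, and the authors deposited its log2 values, 1 per probe set and array. GCRMA subtracts a sequence-based background, so low probe sets can sit at nearly one value on many arrays. Symbols came from the platform annotation; a probe set with several symbols was not used. All 74 genes matched a RefSeq gene of the same symbol.

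Groups followed the labels. limma 3.58.1 in R 4.3.3 was fitted to all 15177 probe sets above log2 4 on at least 6 arrays, with 3 group means, and p-values were adjusted by Benjamini-Hochberg over all of them. Exact permutation tests were two-sided; correlations used 100000 permutations. The scripts were tested on simulated data. Genes were named by rule: in each comparison of 2 groups the 5 members with the smallest p, the member with the highest mean in each family, the core inducible members, the 3 genes nearest to Hsph1 and the genes left out of the members; other genes were chosen after their values were seen. The members, gene lists and marker lists were chosen with earlier results of these data known. A planned search of protein sequences was not run. The number of arrays limits the precision. Alternatives covered filter, scaling, array weights, replicate block, probe set choice and single arrays.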

Additional observations from a re-analysis of the deposited data

Results flagged for a closer look

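In 9 of 93 checks (each named gene in each group), 1 array stood far from the rest of its group by Dixon's test, where chance flags about 1 in 20 groups. The inducible genes Dnajb1 and Hspa1a were each high in a single young rat, at 10.2 in replicate 9 and 5.81 in replicate 3. Hspd1 was high at 11.5 in young replicate 6, and Bag3 at 5.57 in Aged Unimpaired replicate 4. Aged Unimpaired replicate 8 was low for Cct7 at 10.6, Hsp90ab1 at 12.8 and Prrt1 at 11.1, and replicate 6 of that group was low for Hspb8 at 5.72. Hspe1 was low at 11.6 in Aged Impaired replicate 3, one of the arrays with high meningeal markers.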

How the results depend on the processing

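The count of members past the adjusted limma threshold was 0 under each alternative in each comparison, except that without young replicate 5 it was 1 (Dnajb13) in Aged Impaired against young rats, so leaving out single arrays gave 0 to 1 there. Members with a negative difference between the aged groups numbered 34 of 61 under median centring (53.3% of genes). Under quantile normalization they numbered 34 (52.8% of genes), against 15 in the main fit (25.3% of genes). Leaving out single arrays gave 33 to 39, 45 to 51, 11 to 19 and 41 to 45 negative members in Aged Impaired against young, Aged Unimpaired against young, between the aged groups and in all aged rats. Among 3921 alternative values of 124 named differences, the sign changed in 153, of which 1 had a difference over 0.1. The cause was not tested. The 3921 include the values listed for the exact permutation test, which keep the difference of the main fit and cannot change sign. Of the relations with Hsph1, 3 passed; quantile normalization left 1, leaving out single arrays 1 to 4, alternatives chosen after seeing the data. Same-numbered animals showed no clear pairing: 2 of 17 same-numbered pairs correlated above 0.1, against 15 of 129 pairs with different numbers. Of 19 arrays, 2 were nearest to their own number. With the replicate block the calls over all probe sets moved from 78 to 114 in Aged Impaired and from 172 to 9 in Aged Unimpaired rats against young, and 0 members passed in any comparison (33, 47, 14 and 42 negative). Probe sets near the filter, such as Bag4, had a signal too close to background to order their low values.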

Other observations

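Within groups the members varied about as much as other genes: the median pooled SD was 0.12 log2 units for the 61 members and 0.12 for all genes, and 5 members exceeded 0.3 against 5.35% of genes. Dnaja2, Dnajc1 and Dnajc5 were among the steadiest, with SDs of 0.06, and the CCT subunits had a median SD of 0.09. The widest were Bag2 (0.68), Dnajb6 (0.65), Dnajb14 (0.45), Dnaja3 (0.40) and Bag4 (0.38). Dnaja3, the mitochondrial J-domain partner of Hspa9, ran from 7.12 to 8.72 over the arrays. Among 20 further probe sets of 18 members, 12 had the sign of the chosen probe set in Aged Impaired against young rats and 15 in Aged Unimpaired against young rats. For Hspa9, the mitochondrial Hsp70, probe sets gave -0.02 ± 0.05, -0.05 ± 0.07 and, for a low one, 0.75 ± 0.37 in Aged Impaired against young rats.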
